A study of Homo sapiens with 2 samples.

Results

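Small nucleolar RNA host genes are transcribed into long RNAs whose introns carry small nucleolar RNAs (snoRNAs). Described here are 10 of them that code for no long protein, SNHG1, SNHG5, SNHG6, SNHG7, SNHG8, SNHG12, SNHG15, SNHG16, GAS5 and ZFAS1, chosen by gene symbol from 55773 symbols in the deposited tables. Each symbol had exactly 1 row in both tables, so no rows had to be summed. The cells were BFTC 905, an established human urothelial carcinoma line in which, per the labels, ANGPTL4 is low. The control cells carried pcDNA3.1-myc-His (-) A without an insert and the other cells carried a plasmid for ANGPTL4, a secreted inhibitor of lipoprotein lipase. Both were kept under 400 µg/ml G418 as stable transfectants, and the labels do not say whether a library comes from 1 clone or from a pool. Each group is 1 library of total RNA, so no value has a replicate, no test between conditions was possible, and every statement compares these 2 libraries. In bulk RNA, fewer cells of a kind and less RNA per cell cannot be told apart.

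After splicing of such a host RNA, the intron is debranched and trimmed until the snoRNA with its bound proteins remains. Box C/D snoRNAs guide ribose methylation of ribosomal RNA and box H/ACA snoRNAs guide pseudouridylation. Many host RNAs start with a terminal oligopyrimidine (TOP) tract, as mRNAs of ribosomal proteins do. Several of the spliced host RNAs, GAS5 among them, are exported, bound by ribosomes and removed by nonsense-mediated decay, so that their steady level depends on translation as well as on transcription. Several, including GAS5, SNHG1 and ZFAS1, have also been studied as regulators of growth in tumour cells.

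Of the 10 genes, 8 had an entry in the RefSeq promoter table (GRCh38.p14), while SNHG6 and SNHG15 had none. The stretch from 45 bases before the annotated start to the 15th transcribed base is printed for these 8 because the start of a host transcript is where a TOP tract would lie. Capitals mark TATAA between 45 and 16 bases before the start, and runs of at least 5 bases that are all C or T between 10 bases before the start and the end of the stretch. All are written 5′ to 3′ on the gene's own strand.
SNHG1 (chr11:62855871-62855930, minus strand): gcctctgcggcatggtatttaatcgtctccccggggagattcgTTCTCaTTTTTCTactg
SNHG5 (chr6:85678719-85678778, minus strand): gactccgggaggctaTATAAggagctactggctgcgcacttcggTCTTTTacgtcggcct
SNHG7 (chr9:136728170-136728229, minus strand): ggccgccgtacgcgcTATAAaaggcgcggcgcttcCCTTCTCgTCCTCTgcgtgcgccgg
SNHG8 (chr4:118278717-118278776, plus strand): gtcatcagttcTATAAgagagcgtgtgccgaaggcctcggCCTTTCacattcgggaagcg
SNHG12 (chr1:28581859-28581918, minus strand): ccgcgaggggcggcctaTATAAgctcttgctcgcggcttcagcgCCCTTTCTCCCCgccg
SNHG16 (chr17:76557719-76557778, plus strand): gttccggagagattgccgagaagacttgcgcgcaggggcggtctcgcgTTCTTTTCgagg
GAS5 (chr1:173869031-173869090, minus strand): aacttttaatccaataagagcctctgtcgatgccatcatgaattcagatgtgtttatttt
ZFAS1 (chr20:49278597-49278656, plus strand): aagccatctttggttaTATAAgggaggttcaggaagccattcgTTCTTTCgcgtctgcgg

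A C or T run of that length lay near the start in 7 of the 8 promoters, against 43.4% of the 35114 promoters of the same length in the table. The letters CTTT, searched on the gene's strand in the same window, were in 5 of the 8, against 10.7% of all promoters, and every CTTT lies inside one of the marked runs. TATAA on the gene's strand, 45 to 16 bases before the start, was in 5 of the 8, against 4.10% of all promoters. On either strand of the whole 300 bases, TATAA was in 6 of the 8, against 20.4%. These motifs were chosen after the sequences had been seen, and a match is a description of letters. The start of the GENCODE release 29 gene lies elsewhere for several: 1259 bases from the RefSeq start for SNHG12, 464 for ZFAS1, 163 for GAS5, 53 for SNHG8 and 29 for SNHG1. For SNHG12, ZFAS1, GAS5 and SNHG8 the printed stretch therefore does not cover the GENCODE start.

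The hosts differ in their cargo. RefSeq places 37 snoRNAs inside the 10 genes, 28 with SNORD symbols (box C/D), 8 with SNORA symbols (box H/ACA) and 1 without such a symbol. GAS5 holds 11, of both kinds: SNORD44, SNORD47, SNORD74 to SNORD81 and SNORA103. SNHG1 holds 9, among them SNORD22 and SNORD25 to SNORD31. SNHG12 holds 4 (SNORA16A, SNORA44, SNORA61 and SNORD99), SNHG16 holds SNORD1A, SNORD1B and SNORD1C, and ZFAS1 holds SNORD12, SNORD12B and SNORD12C. SNHG5 holds SNORD50A and SNORD50B, SNHG7 holds SNORA17A and SNORA17B, and SNHG6, SNHG8 and SNHG15 hold 1 each, SNORD87, SNORA24 and SNORA9.

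The snoRNAs themselves were not measured in usable form. The deposited tables have rows for 7 of them inside the hosts (SNORD87, SNORD99, SNORD1B, SNORD78, SNORD12, SNORD12B and SNORD12C), and all 7 are listed at 0 in both libraries. The same holds for 857 of all 859 snoRNA rows and for all 24 rows of mitochondrial tRNA and rRNA, which every cell contains. A listed 0 therefore says nothing about the snoRNA, and the values below describe the host transcripts alone.

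Values are the deposited RPKM, reads scaled by the authors to exon length and library size. From the steps between low RPKM values, the vector control library had 6572767 reads and the ANGPTL4 library 3233596, so the control was 2.03-fold deeper. Intervals printed with a ratio are exact 95% intervals from the read numbers at these depths and cover counting error only. In the check of the labels, ANGPTL4 was at 3.92 RPKM with the empty vector and 91.2 RPKM with the ANGPTL4 plasmid, where reads of the plasmid are included. Of 14 epithelial and urothelial markers 12 reached 1 RPKM in a library, KRT5 at 434.2 and 468.9 RPKM among them, and UPK3A was at 0 in both. Of 11 markers of fibroblasts, endothelium, leukocytes and muscle 2 reached 1 RPKM, COL1A1 and CD14. The summed level of these 11 was 6.25 RPKM with the empty vector and 6.50 RPKM with the ANGPTL4 plasmid. Mitochondrially encoded genes took 5.11% of the control reads and 8.71% of the ANGPTL4 reads. The part of depth and mitochondrial share in the differences given here was not tested.

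All 10 host genes were expressed in both libraries, and 9 of the 10 had a lower RPKM in the ANGPTL4 library, with plain ratios of 0.668 to 0.869. Of the 11802 genes that reached 1 RPKM in either library, called measured here, 64.4% were lower. None of the 10 differed 1.5-fold on the log2(RPKM + 1) scale, the scale used for all size counts, against 9.25% of measured genes lower and 3.08% higher by that size. The largest differences on that scale were those of GAS5, SNHG7 and SNHG16, and SNHG6 was the exception in direction. The interval of the ratio lay wholly below 1 for 5 of the 10, against 28% of the 10589 measured genes with settled reads, and wholly above 1 for 0 of the 10, against 8.54%. After upper-quartile scaling it did so for GAS5 and SNHG16 alone, against 15.3% of those genes.

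ZFAS1, a host transcribed from the promoter region of ZNFX1 in the opposite direction, had the highest RPKM of the 10. It was at 131.9 RPKM with the empty vector (1902 reads) and 113.0 RPKM with the ANGPTL4 plasmid (802 reads). The ratio was 0.857 (0.788 to 0.931), or 0.957 (0.880 to 1.04) after upper-quartile scaling, where the interval includes 1. ZFAS1 made up 44.4% of the summed RPKM of the 10 genes in the control cells and 46.6% in the ANGPTL4 cells. By level it stood at percentile 98.4 of all measured genes in both.

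SNHG16, the host of the SNORD1 family, came next with 49.6 RPKM with the empty vector (1296 reads) and 37.0 RPKM with the ANGPTL4 plasmid (475 reads). Its ratio was 0.745 (0.669 to 0.828). GAS5, named for its accumulation in growth-arrested cells, was at 34.0 RPKM (812 reads) and 23.4 RPKM (275 reads). Its ratio was 0.688 (0.598 to 0.790). Among the hosts, GAS5 and SNHG16 alone had an interval wholly below 0.912, the median ratio of all measured genes. The same held for 17.1% of the 10589 measured genes with settled reads. The level intervals were 31.7 to 36.4 and 20.7 to 26.4 RPKM for GAS5, and 47.0 to 52.4 and 33.7 to 40.5 RPKM for SNHG16. These level intervals are given as description, since their overlap between the libraries was not counted over all measured genes.

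SNHG1, which carries 8 SNORD genes, was at 28.0 RPKM with the empty vector (692 reads) and 22.6 RPKM with the ANGPTL4 plasmid (274 reads). The ratio was 0.805 (0.697 to 0.927), or 0.899 (0.779 to 1.04) after upper-quartile scaling. SNHG7, a host of H/ACA snoRNAs, had the lowest plain ratio of the 10. It was at 4.80 RPKM (137 reads) and 3.20 RPKM (45 reads), a ratio of 0.668 (0.466 to 0.941), or 0.746 (0.520 to 1.05) after upper-quartile scaling. The interval of SNHG7 rests on few reads, and it includes the ratios of all other members except SNHG6.

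For the remaining 5 the interval included 1, so that a difference was not detectable at this depth and with the deposited scaling. SNHG12, like GAS5 a host of both kinds of snoRNA, was at 3.87 RPKM (86 reads) with the empty vector. With the ANGPTL4 plasmid it was at 2.75 RPKM (30 reads), a ratio of 0.709 (0.452 to 1.09). SNHG15 was at 4.67 RPKM (112 reads) and 3.48 RPKM (41 reads), a ratio of 0.744 (0.507 to 1.07). SNHG5 was at 6.0 RPKM (87 reads) and 4.91 RPKM (35 reads), a ratio of 0.818 (0.536 to 1.22). These 3 genes and SNHG7 were the least abundant of the 10 in both libraries.

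SNHG8 was at 20.4 RPKM with the empty vector (124 reads) and 17.8 RPKM with the ANGPTL4 plasmid (53 reads), a ratio of 0.869 (0.618 to 1.21). SNHG6, the host of SNORD87, was at 13.8 RPKM (113 reads) and 14.6 RPKM (59 reads), a ratio of 1.06 (0.761 to 1.47). SNHG6 was the only member with a ratio above 1, and its log2 ratio of 0.08 became -0.08 when both libraries were scaled to the same sum of RPKM.

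**Figure D1:**
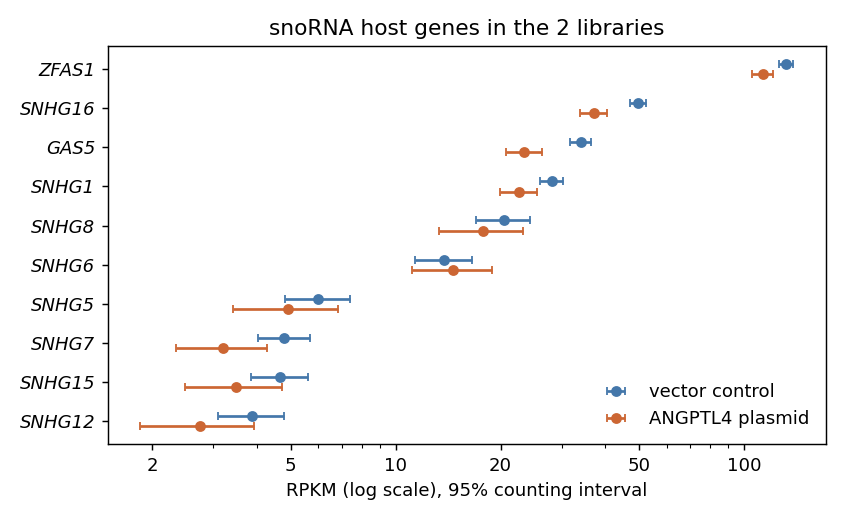
RPKM of the 10 host genes on a log axis in the vector control library (blue) and the ANGPTL4 library (orange), with exact 95% counting intervals as bars and 1 library per group. ZFAS1 stands highest at 131.9 and 113.0 RPKM. For SNHG1 and ZFAS1 a shorter exon length also fits, with fewer reads and wider bars than those drawn. Overlap of the bars was not counted over all measured genes. At the deposited scaling the ratio interval lay wholly below 1 for 5 of the 10, against 28% of measured genes with settled reads. After upper-quartile scaling the ratio intervals of ZFAS1 and SNHG1 include 1.

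The order of the levels per exon length in the control library was ZFAS1, SNHG16, GAS5, SNHG1, SNHG8, SNHG6, SNHG5, SNHG7, SNHG15, SNHG12. Counting intervals separate each of the first 6 from the next, for example SNHG1 (26.0 to 30.2 RPKM) from SNHG8 (17.0 to 24.4 RPKM). They do not separate SNHG5, SNHG7 and SNHG15 from each other, nor SNHG7 and SNHG15 from SNHG12. In the ANGPTL4 library the first 7 genes held the same places and SNHG15 stood above SNHG7. There the neighbours GAS5 and SNHG1, SNHG1 and SNHG8, and SNHG8 and SNHG6 overlapped, as did the last 4 genes.

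A level per exon length depends on the annotated exons, and these differ widely among the hosts. The exon lengths behind the RPKM values were 923 bases for SNHG8, 1247 for SNHG6, 3756 for SNHG1 and 4345 for SNHG7. The exons of SNHG1 cover 95.6% of its region and those of SNHG15 92.6%, against 12.4% for SNHG5 and 19.8% for ZFAS1. GENCODE lists 29 transcripts for GAS5, 25 for SNHG1 and 23 for SNHG5, and 4 for SNHG7. By RPM, reads scaled to library size but not to length, the order was ZFAS1 at 289.4, SNHG16 at 197.2, GAS5 at 123.5 and SNHG1 at 105.3 in the control library. SNHG7 followed at 20.8, the fifth gene on that scale and the eighth on the RPKM scale. For ZFAS1 and SNHG1 a shorter exon length also fits, with 951 and 346 control reads. With 951 reads ZFAS1 would stand below SNHG16, which had 1296 reads, on the RPM scale. The ratio between the libraries does not depend on the exon length.

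Summed over the 10 genes, the hosts took 5361 control reads, or 815.6 RPM, and 2089 ANGPTL4 reads, or 646.0 RPM. The ratio of the sums was 0.792 (0.753 to 0.833). ZFAS1 supplied 35.5% of these reads in the control, and without it the ratio was 0.756 (0.709 to 0.807). The median ratio of all measured genes was 0.912. Shorter exon lengths also fit for ZFAS1 and SNHG1, with 951 and 346 control reads. The sums, their ratios and intervals and the share of ZFAS1 therefore depend on the length chosen. The ratios of the single genes spanned 0.668 to 1.06, and the intervals of all 45 pairs of members overlapped, those of GAS5 and ZFAS1 only at the edge. Differences between members were not tested.

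**Figure D2:**
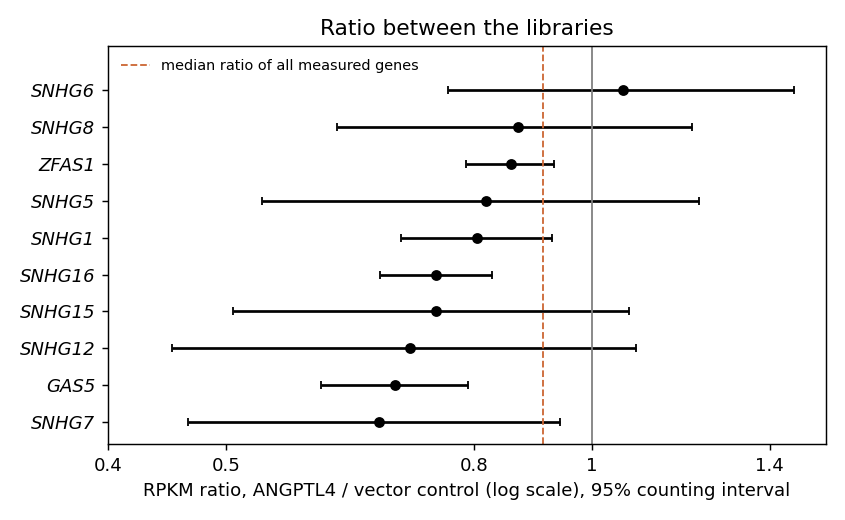
Ratio of RPKM, ANGPTL4 library over vector control library, for each host gene on a log axis, with exact 95% intervals of counting error. The grey line marks 1 and the dashed line the median ratio of all measured genes, 0.912. GAS5 and SNHG16 are the hosts whose interval ends to the left of the dashed line, against 17.1% of measured genes with settled reads.

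Lower values in the ANGPTL4 library were common in the whole data set. The share of measured genes with a log2 ratio below 0, given above as 64.4%, was 47.2% after upper-quartile scaling, 48.6% once the trend with exon length and GC content was removed and 79.4% with both libraries scaled to the same sum of RPKM, and 9, 9 and 10 of the hosts were then lower. The median log2 ratio was -0.32 for the 10 hosts and -0.11 for all measured genes. At the 2-fold size 1.91% of measured genes were lower and 1.19% higher, and 0 of the hosts in either direction. With both libraries scaled to the same sum, GAS5 at -0.68 and SNHG7 at -0.59 passed the 1.5-fold size. The median of all measured genes was then -0.25, and the share of them past that size under this scaling was not worked out.

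Among all measured genes, the log2 ratios of the hosts ranked from percentile 11.7 (GAS5) to percentile 74.2 (SNHG6). Besides GAS5, SNHG7 stood at percentile 14.9, SNHG16 at 17.9 and SNHG12 at 20.5. At the ends of this range lay GAS5, which holds both kinds of snoRNA, and SNHG6, which holds the box C/D snoRNA SNORD87 alone. The H/ACA hosts SNHG7, SNHG15 and SNHG8 lay inside it at percentiles 14.9, 23.7 and 39.6. On the plain ratio SNHG7, at 0.668, was the lowest of the hosts. The number of snoRNAs in a gene gave no order either, since SNHG7 with 2 and GAS5 with 11 had the lowest ratios.

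**Figure D3:**
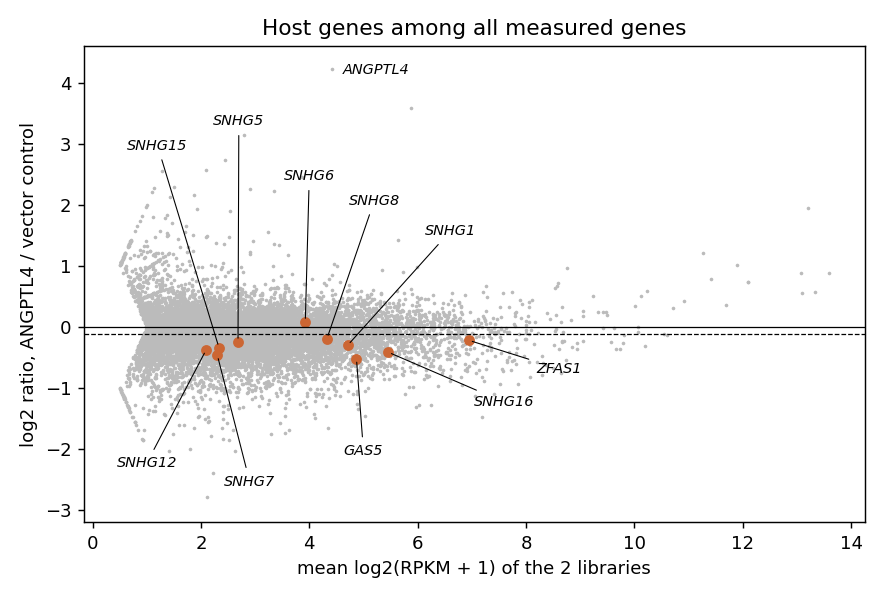
Log2 ratio on the log2(RPKM + 1) scale against the mean log2(RPKM + 1) of the 2 libraries for 11802 measured genes (grey) and the 10 host genes (orange), with ANGPTL4 labelled at 4.23. The dashed line is the median of all measured genes, -0.11, and the hosts lie between -0.52 and 0.08, inside the grey cloud at every level.

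Several hosts lie beside or overlap a coding gene, which gives a comparison at the same place. Positions are from the deposited tables (hg19). SNHG1 (chromosome 11, 62619460 to 62623386) lies 131 bases from SLC3A2, the heavy chain of amino acid transporters. SLC3A2 was at 68.0 RPKM with the empty vector and 40.7 RPKM with the ANGPTL4 plasmid, a ratio of 0.598 (0.549 to 0.652), lower than that of SNHG1 with intervals that do not overlap. WDR74, a ribosome assembly factor on the other side at 10178 bases, was at 20.5 and 18.6 RPKM.

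ZFAS1 (chromosome 20, 47894715 to 47905797) overlaps the RNA helicase-like gene ZNFX1 by 249 bases. ZNFX1 was at 14.8 and 15.1 RPKM, a ratio of 1.02 (0.910 to 1.14), whose interval overlaps that of ZFAS1. DDX27, an RNA helicase of ribosome assembly 34100 bases away, was at 18.2 and 22.0 RPKM, a ratio of 1.21 (1.06 to 1.37) that lies above the interval of ZFAS1.

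GAS5 (chromosome 1, 173833038 to 173838020) overlaps ZBTB37, a zinc finger gene, by 801 bases. ZBTB37 was at 1.38 and 1.03 RPKM, a ratio of 0.746 (0.553 to 0.997), close to that of GAS5.

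SNHG16 (chromosome 17, 74553848 to 74561430) overlaps the sialyltransferase gene ST6GALNAC2 by 1639 bases. ST6GALNAC2 was at 5.23 and 5.69 RPKM, a ratio of 1.09 (0.878 to 1.34), apart from that of SNHG16. SNHG7 (chromosome 9, 139615818 to 139622636) overlaps FAM69B by 2685 bases, and FAM69B was at 3.09 RPKM in both libraries, a ratio of 0.998 (0.605 to 1.61). The use of strand in the authors' counting is not given in the sources used here, so reads from overlapping stretches may be assigned to either gene of a pair.

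SNHG12 (chromosome 1, 28905050 to 28909495) overlaps TRNAU1AP by 2 bases, at 1.02 and 0.718 RPKM, and lies between RCC1, the nucleotide exchange factor of RAN, at 25.0 and 21.1 RPKM, and the transcription factor subunit TAF12, at 6.77 and 6.09 RPKM. SNHG15 (chromosome 7, 45022622 to 45026560) lies 12513 bases from CCM2, at 4.46 and 2.75 RPKM, a ratio of 0.618 (0.469 to 0.807). Next to SNHG8 (chromosome 4, 119199864 to 119200978), SNHG5 (chromosome 6, 86370710 to 86388451) and SNHG6 (chromosome 8, 67833919 to 67838633) no neighbouring or overlapping row reached 1 RPKM. Of the 11 measured neighbours described here, 9 had a higher log2 ratio than their host, or 8 on the plain ratio, where TRNAU1AP is below SNHG12. Most measured genes lie above these hosts, 63.7% above ZFAS1 and 88.3% above GAS5. Of the 11, 3 had an interval apart from that of the host: SLC3A2, ST6GALNAC2 and DDX27.

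**Figure D4:**
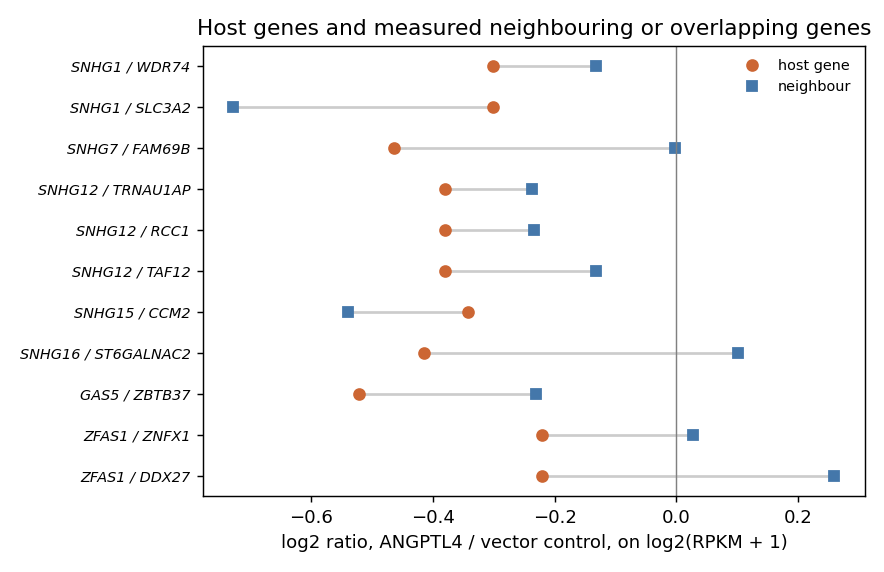
Log2 ratio on the log2(RPKM + 1) scale of each host gene (orange circle) and of its measured nearest or overlapping gene (blue square), 1 pair per line. The neighbour lies to the right of the host in 9 of 11 pairs, and SLC3A2 and CCM2 lie to the left.

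Other non-coding hosts gave a mixed picture. Of 20 listed symbols, 10 had a row and 8 were measured, 6 lower and 2 higher in the ANGPTL4 library, with a median log2 ratio of -0.17. After centring on the median gene 4 were lower and 4 higher. DANCR, which hosts an H/ACA snoRNA and is abundant in many tumour lines, was at 25.4 and 18.8 RPKM, a ratio of 0.738 (0.579 to 0.933). SNHG14 was at 1.60 and 1.23 RPKM, SNHG17 at 4.22 and 3.84 RPKM, SNHG18 at 6.08 and 5.71 RPKM, SNHG11 at 1.68 and 0.989 RPKM, and EPB41L4A-AS1 at 7.19 and 6.01 RPKM. SNHG3 was at 2.27 RPKM with the empty vector and 3.40 RPKM with the ANGPTL4 plasmid, a ratio of 1.5 (0.997 to 2.24). SNHG9, the only one past the 2-fold size, rests on 2 and 4 reads, with a ratio of 4.07 (0.583 to 44.9).

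Coding genes host snoRNAs as well. A snoRNA row lay inside the region of 352 coding genes, of which 262 were measured, 170 lower and 92 higher, with a median log2 ratio of -0.11, the value of all measured genes, and 0.02 after upper-quartile scaling. Orientation was not checked, so some contain a snoRNA without being its host. The 29 of them that encode cytosolic ribosomal proteins, 8.24% of these genes and 33.3% of the 87 ribosomal protein genes, were lower for 25 and higher for 4, with a median of -0.54. The other 233 measured ones were lower for 145 and higher for 88, with a median of -0.09 that became 0.02 after centring on the median gene. This division was made after the values had been seen. Among the coding genes at the ends, TMX1, a thioredoxin-like protein of the endoplasmic reticulum, was at 16.4 and 7.02 RPKM, and SCOC at 2.56 and 0.639 RPKM. RPL21 was at 24.5 and 10.9 RPKM, and the read-through gene SENP3-EIF4A1 at 41.9 and 19.1 RPKM. At the other end MBD2, which binds methylated DNA, was at 9.03 and 14.1 RPKM. TIMM23B and the read-through genes PPAN-P2RY11 and RPL17-C18orf32 were higher by 1.5-fold or more, and share sequence with other genes.

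Ribosomal protein genes, whose mRNAs also begin with TOP tracts, had a median log2 ratio of -0.42 over 83 measured genes, 65 lower and 18 higher, and spread more widely than the 10 hosts. They ran from RPS27 at 240.3 and 86.0 RPKM, a log2 ratio of -1.47, to RPL11 at 307.9 and 599.2 RPKM, a log2 ratio of 0.96. RPL22L1, RPS14 and RPS27A stood near the low end, and RPL36A, RPS25 and RPL28 near the high end. At least 1.5-fold lower values were found for 35 of the 83 and higher ones for 4, against 0 and 0 of the 10 hosts. Over all measured genes the shares were 9.25% and 3.08%. Processed pseudogenes share the sequence of most ribosomal protein genes, so single values are uncertain. Genes that act on TOP mRNAs, LARP1 and the mTORC1 kinase MTOR among them, were mostly close between the libraries: LARP1 was at 58.5 and 60.7 RPKM and MTOR at 11.3 and 11.6 RPKM. The lowest was TIA1, an RNA-binding protein of stress granules, at 4.26 and 2.95 RPKM, a ratio of 0.692 (0.512 to 0.926), followed by LARP4 at 0.855 (0.734 to 0.992). Of these 9 genes 5 were lower and 4 higher, and 0 passed 1.5-fold. After centring on the median gene 2 were lower and 7 higher.

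The proteins that package snoRNAs were split in direction. Of 21 measured snoRNP proteins and assembly factors 12 were lower and 9 higher, with a median log2 ratio of -0.05, or 0.06 after centring on the median gene. FBL, the methyltransferase of box C/D particles, was at 110.2 and 106.2 RPKM, a ratio of 0.963 (0.882 to 1.05). NOP56, itself a snoRNA host, was at 39.5 and 33.1 RPKM, and its partner NOP58 at 25.9 and 27.4 RPKM. DKC1, the pseudouridine synthase of H/ACA particles, was at 25.9 and 23.5 RPKM. The H/ACA protein NHP2, at 48.2 and 30.5 RPKM, and the assembly factor ZNHIT3, at 3.07 and 1.20 RPKM, were at least 1.5-fold lower, and 0 genes of this list were as much higher. These 2 of 21 genes stand against 9.25% of all measured genes lower and 3.08% higher by that size, so the count is near the background. The highest of this list was NOLC1, a nucleolar chaperone of snoRNPs, at 94.1 and 123.9 RPKM, a ratio of 1.32 (1.23 to 1.40).

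Nonsense-mediated decay, which removes several of the spliced hosts, was represented by 18 measured genes, 8 lower and 10 higher, with a median log2 ratio of 0.09 that became -0.06 with both libraries scaled to the same sum of RPKM. UPF1, the helicase at the centre of the pathway, was at 33.1 and 27.0 RPKM, a ratio of 0.814 (0.747 to 0.887). The exon junction proteins EIF4A3, at 20.6 and 12.8 RPKM, and MAGOHB, at 5.12 and 2.35 RPKM, were at least 1.5-fold lower, and 0 genes of this list were as much higher. These 2 of 18 genes stand against 9.25% of all measured genes lower and 3.08% higher by that size, so the count is near the background. UPF2 and UPF3A were higher, at 8.91 and 10.3 and at 8.02 and 9.50 RPKM, with intervals of the ratio that include 1.

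**Figure D5:**
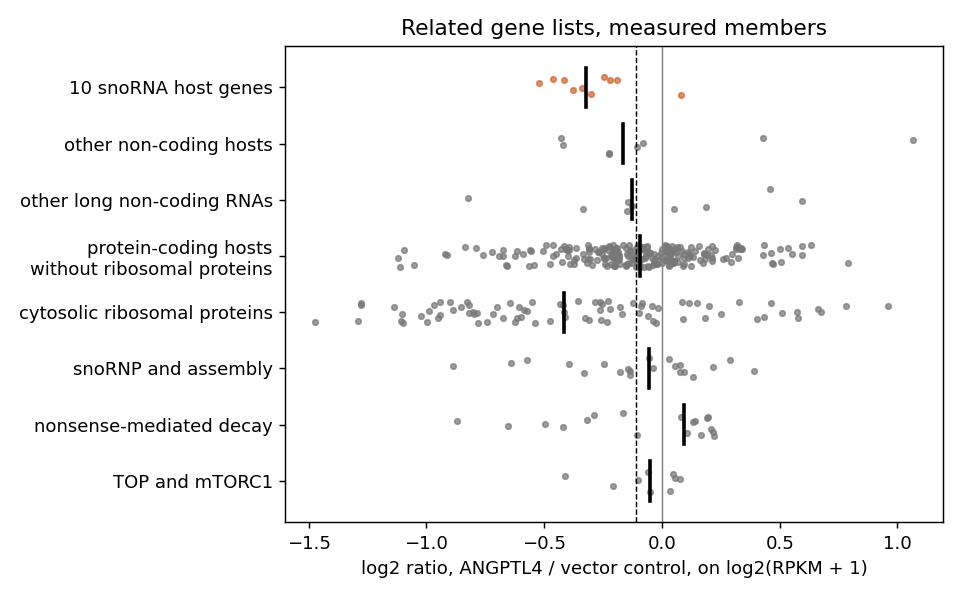
Log2 ratio on the log2(RPKM + 1) scale of the measured genes of 8 lists, 1 point per gene, with the list median as a bar, 0 as a grey line and the median of all measured genes as a dashed line. The 10 host genes (orange, median -0.32) lie in a narrower range than the 83 ribosomal protein genes (median -0.42), and a range widens with the number of genes. The decay list has its median above 0.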

How the data were processed

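The authors deposited RPKM values, 1 per gene row, per the file headers, for 57773 rows in each of 2 libraries. Per the submitters' processing notes, coordinates follow hg19. Aligner, counting program, annotation release and strand use are not given in the sources used here. Samples were grouped by the transfection in their labels. Rows of the same symbol were summed. Fold sizes use log2(RPKM + 1), a pseudocount of 1, which understates differences of low genes.

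Depth was taken as the total at which values of rows under 3000 bases became whole reads (tolerance 0.0001). This held for 300 of 1378 rows in the control and for 278 of 1123 in the ANGPTL4 library. The next best totals, sought only within a few reads of the chosen ones, gave 271 and 251. More distant totals were not compared in this way. A gene's exon length is the one nearest its GENCODE release 29 length at which both values are whole (tolerance 0.001), and for 6 of the 10 hosts it equals that length. For SNHG1 and ZFAS1 a shorter length, with fewer reads, also fits. Ratio intervals are exact binomial (Clopper-Pearson) and level intervals exact Poisson.

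No test between groups was made. Members and lists were chosen with earlier results of these data known. All 10 hosts are named, their measured neighbours (some genes the rule selects are not reported here), and up to 4 genes at each end of a list that are at least 1.5-fold apart; a few others were added to describe a list. No genes are named for a similar pattern, since 2 libraries give 1 difference per gene. RefSeq and GENCODE (GRCh38) gave names, types, lengths and promoter sequences, and their coordinates were not mixed with hg19. The procedures were tested on simulated data. Analyses used Python 3.11.15, numpy 2.4.6, pandas 2.3.3 and scipy 1.17.1.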

Additional observations from a re-analysis of the deposited data

How the results depend on the processing

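Under 10 alternatives (pseudocounts of 0.1 and 5, a minimum of 0 or 5 RPKM, upper-quartile scaling, centring to a median of 0, equal sums of RPKM, scaling without mitochondrial, ribosomal protein and small RNA reads, correction for exon length and GC content, and the highest row only), the median log2 ratio of the hosts stayed below 0, between -0.47 and -0.15. At least 1.5-fold lower hosts numbered 0 as reported, against 9.25% of measured genes, and 2 with equal sums of RPKM. The share of measured genes past that size with equal sums was not worked out. With a minimum of 5 RPKM only 7 hosts remained, 6 of them lower. The median of all measured genes moved from -0.11 to 0.02 after upper-quartile scaling, to 0.01 after the length and GC correction, which covered 90.6% of measured genes, and to -0.25 with equal sums. The hosts had a median of -0.18, -0.15 and -0.47 under these 3, each below that of all genes. The count of hosts with a ratio interval wholly below 1 under other scalings was an alternative chosen after seeing the data. It was 5 as reported, against 28% of the measured genes with settled reads. After upper-quartile scaling it was 2 (GAS5 and SNHG16), against 15.3%. With the median ratio set to 1 the same 2 hosts were counted, against 17.1%. The count was 5 without mitochondrial, ribosomal protein and small RNA reads, against 23.7%, and 7 with equal sums, against 45.6%. ZFAS1 moved from -0.22 to -0.06 on the log2 scale under upper-quartile scaling and to -0.09 with length and GC corrected, SNHG16 from -0.41 to -0.26 and -0.25, and GAS5 from -0.52 to -0.32 with length and GC corrected. With the shortest exon length that also gives whole reads, the interval was 0.655 to 0.984 for SNHG1 and 0.761 to 0.964 for ZFAS1 at the deposited scaling. No paired analysis was possible because each group is 1 library without replicate numbers, and for the same reason no library could be left out. Depth limits the 5 hosts with 86 to 124 reads in the control, whose intervals all include 1 at the deposited scaling. With equal sums of RPKM those of SNHG12 (0.401 to 0.965) and SNHG15 (0.451 to 0.954) lay below 1.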

Other observations

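Among other long non-coding RNAs, on a list chosen together with the hosts, 9 of 14 with a row were measured, 5 lower and 4 higher in the ANGPTL4 library, with a median log2 ratio of -0.13, or 0.01 with exon length and GC content corrected. H19, an imprinted RNA expressed in embryonic tissue and in bladder tumours, was at 981.5 RPKM with the empty vector and 1483 RPKM with the ANGPTL4 plasmid, a ratio of 1.51 (1.48 to 1.54). HCG18 was at 2.95 and 1.23 RPKM, a ratio of 0.417 (0.307 to 0.558). TUG1, at 24.5 and 19.3 RPKM, had a ratio of 0.785 (0.700 to 0.879), in the range of the snoRNA hosts.

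The 2 snoRNA rows above 0 were longer than a snoRNA. The row SNORA67_8 spans 9199 bases of chromosome 17 and was at 40.6 and 38.4 RPKM. It overlaps the coding genes EIF4A1, at 71.8 and 44.9 RPKM, and CD68, at 17.1 and 18.0 RPKM. SNORA76_3 spans 507 bases and was at 1.09 and 1.11 RPKM.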
